A study of Mus musculus with 18 samples.

Results

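The erythrocyte and ESC libraries of the enhancer capture were compared at all 6 of its viewpoints, 3 libraries a side, which is 6 of the 18 samples of the series. The members are the contacts of each viewpoint on its own chromosome, taken from every column of the erythrocyte (PHS) and ESC files. The assay was Next Generation Capture-C, in which cross-linked chromatin was cut with DpnII and religated, and fragments joined to a chosen viewpoint were pulled out with biotinylated oligonucleotides and sequenced. The ESCs were mouse embryonic stem cells of strain 129/Sv//EV at day 0 of differentiation, grown with LIF. The erythrocytes were C57BL/6 cells from spleens of mice treated with phenylhydrazine and killed on day 5, so strain, origin and cell type differ together and their effects cannot be told apart. Phenylhydrazine destroys red cells, and the spleen of a treated mouse fills with erythroid precursors. The legends of the study call the replicates biological, but no source used here says that each came from its own animal or culture, so p-values measure the spread between these libraries only.

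The 6 viewpoints held 8 captured zones, the runs of fragments left empty in a column because the viewpoint itself lies there. 3 of the viewpoints are enhancers of Eomes, the T-box factor gene required for gastrulation and definitive endoderm. VPE covered chr9:118394813-118397837 in mm9 (NCBIM37), 9.0 kb downstream of the Eomes start and across the end of the gene. PSEa, at chr9:118376738-118378092, and PSEb, at chr9:118380281-118382070, were intergenic, with middles at -9.9 kb and -6.2 kb from the same start. The other 5 zones lay over gene starts, so the label of an enhancer capture does not hold for them. The Hba viewpoint covered the starts of the adult α-globin genes Hba-a1 (chr11:32182317-32184781) and Hba-a2 (chr11:32194990-32197598). The Hbb viewpoint covered the starts of the adult β-globin genes Hbb-b2 (chr7:110961283-110963273) and Hbb-b1 (chr7:110975292-110977138). The Slc25a37 viewpoint covered the start of the gene for mitoferrin-1 (chr14:69902161-69904393), which imports iron into mitochondria for haem synthesis. These 5 zones were identical to those of the promoter capture made from the same 3C libraries, and below the 3 viewpoints on them are called promoter viewpoints.

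In erythroid cells the adult globin genes are transcribed at very high rates under remote control. The α-globin enhancers lie upstream of the genes, most of them in introns of the housekeeping gene Nprl3. The β-globin locus control region lies upstream of the embryonic gene Hbb-y, towards the olfactory receptor genes that flank the cluster. Eomes is silent in red cells, and in ESCs it is silent but can be switched on by Nodal and Smad signals, to which VPE and the PSE elements respond.

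Promoter windows of the captured genes, from RefSeq (GRCm38.p6, 250 bases before to 50 after the start) and placed on NCBIM37 by exact match, show what the promoter viewpoints consisted of. Capitals mark matches, on either strand, to AGATAA or to TGATAA, which GATA factors bind, to the KLF1 motif CCACACCC, to TGAGTCA, bound by NFE2 and AP-1, to the T-box motif TCACACCT or to the Smad motif CAGACA. The Hba-a1 window matched both α-globin zones exactly, at chr11:32183422-32183721 and chr11:32196239-32196538, on the + strand. Its only match was 1 TGATAA, a motif held by 9.1% of the 32851 RefSeq windows. The Hbb-b1 zone held the RefSeq window of Hbb-bs (chr7:110976393-110976692, - strand) and the Hbb-b2 zone that of Hbb-bt (chr7:110962388-110962687, - strand). Their aligned windows were identical at 56.2% of positions, against 100% for Hba-a1 and Hba-a2. Hbb-bs held AGATAA (11.2% of windows), CCACACCC (3.6%) and TGAGTCA (5.2%), while Hbb-bt held CAGACA (21.0%) and none of the others. The middle of the VPE zone (chr9:118396226-118396425, + strand) is given as an example of the enhancer viewpoints.
Hba-a1: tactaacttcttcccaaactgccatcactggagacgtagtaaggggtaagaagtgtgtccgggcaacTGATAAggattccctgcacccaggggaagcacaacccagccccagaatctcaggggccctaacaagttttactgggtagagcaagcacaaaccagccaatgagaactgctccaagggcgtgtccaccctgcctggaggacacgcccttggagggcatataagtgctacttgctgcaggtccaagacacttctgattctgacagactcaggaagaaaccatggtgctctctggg
Hbb-bs: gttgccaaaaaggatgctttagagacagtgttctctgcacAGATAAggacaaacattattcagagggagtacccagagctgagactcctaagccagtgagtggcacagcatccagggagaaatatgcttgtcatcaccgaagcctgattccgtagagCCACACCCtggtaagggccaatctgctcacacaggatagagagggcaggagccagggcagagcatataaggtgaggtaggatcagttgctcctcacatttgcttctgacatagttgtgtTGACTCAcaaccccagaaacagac
Hbb-bt: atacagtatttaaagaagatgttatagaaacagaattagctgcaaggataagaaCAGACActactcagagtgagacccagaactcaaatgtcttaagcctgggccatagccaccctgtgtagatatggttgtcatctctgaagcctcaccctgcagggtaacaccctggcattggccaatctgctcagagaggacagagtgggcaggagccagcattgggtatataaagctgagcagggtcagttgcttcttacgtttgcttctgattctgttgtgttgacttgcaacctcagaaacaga
VPE: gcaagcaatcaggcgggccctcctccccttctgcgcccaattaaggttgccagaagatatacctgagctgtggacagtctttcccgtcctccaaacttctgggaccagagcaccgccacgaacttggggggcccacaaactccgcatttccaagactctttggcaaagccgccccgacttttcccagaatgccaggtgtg

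The deposited value of a fragment is its number of interactions scaled to a total of 100000 per library and viewpoint, and the underlying reads could be recovered from it. ESC libraries held 521 to 62021 reads per viewpoint, the lowest for Hbb (521, 746 and 973), and erythrocyte libraries 3185 to 93440. The share of reads on the chromosome of the viewpoint (cis) was 51.7 to 73.7% in ESC. In erythrocytes it was 64.8 to 75.3% in replicate 2 but 25.0 to 40.7% in replicate 1 and 21.6 to 42.4% in replicate 3. Values were therefore rescaled to 100000 cis interactions. Erythrocyte replicate 3 also stood apart near the viewpoints, where the fragments adjoining the captured zones took 9.19 to 27.2% of its cis interactions, against 0.364 to 3.59% in ESC. A lower contact in every cell and the loss of a contact in some of the cells cannot be told apart in these pooled cells.

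At all 6 viewpoints a smaller share of the cis contacts of erythrocytes lay between 100 and 500 kb from the captured zone. For VPE this share was 25.4, 26.3 and 25.4% in the 3 ESC libraries and 12.1, 13.4 and 10.0% in the erythrocyte libraries. For Hba it was 19.8, 20.2 and 19.9% against 7.73, 7.36 and 4.00%. No erythrocyte library reached the level of any ESC library at any viewpoint. Group means were 25.7% ± 0.549 in ESC and 11.9% ± 1.73 in erythrocytes for VPE (SD, n = 3), 25.5% and 8.81% for PSEa, and 26.5% and 10.5% for PSEb. They were 20.0% and 6.36% for Hba, 22.4% and 6.14% for Hbb, and 17.3% and 4.93% for Slc25a37. Each comparison gave p = 0.1 in an exact two-sided permutation test, the smallest p that 3 against 3 libraries allow.

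Nearer contacts separated the viewpoints. Between 20 and 100 kb the Eomes enhancers had less contact in every erythrocyte library, going from 13.8% ± 0.308 to 8.55% ± 0.852 of cis interactions for VPE, from 17.7% ± 0.527 to 6.69% ± 2.73 for PSEa and from 17.8% ± 0.335 to 7.53% ± 1.19 for PSEb (SD, n = 3, exact permutation p = 0.1 each). In the same class the Hbb promoters went from 11.8% ± 1.27 to 22.1% ± 6.48 and the Slc25a37 promoter from 16.0% ± 0.321 to 21.9% ± 4.10, again with no overlap between libraries (exact permutation p = 0.1 each). The Hba promoters held 19.2% ± 0.543 in ESC and 19.5% ± 3.77 in erythrocytes, with overlapping libraries, and its sides differed in opposite directions, as given below. Under 20 kb, erythrocyte libraries exceeded ESC libraries at every viewpoint but VPE, most of all replicate 3 (61.8% for PSEa). For Hba this difference of 9.42 points turned to -3.85 points when cis and trans interactions together were the total. Over 2 Mb, erythrocyte libraries were higher at all viewpoints but Slc25a37, and here too the differences for Hba and Hbb turned, to -2.56 and -5.35 points, on the total of cis and trans.

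**Figure D1:**
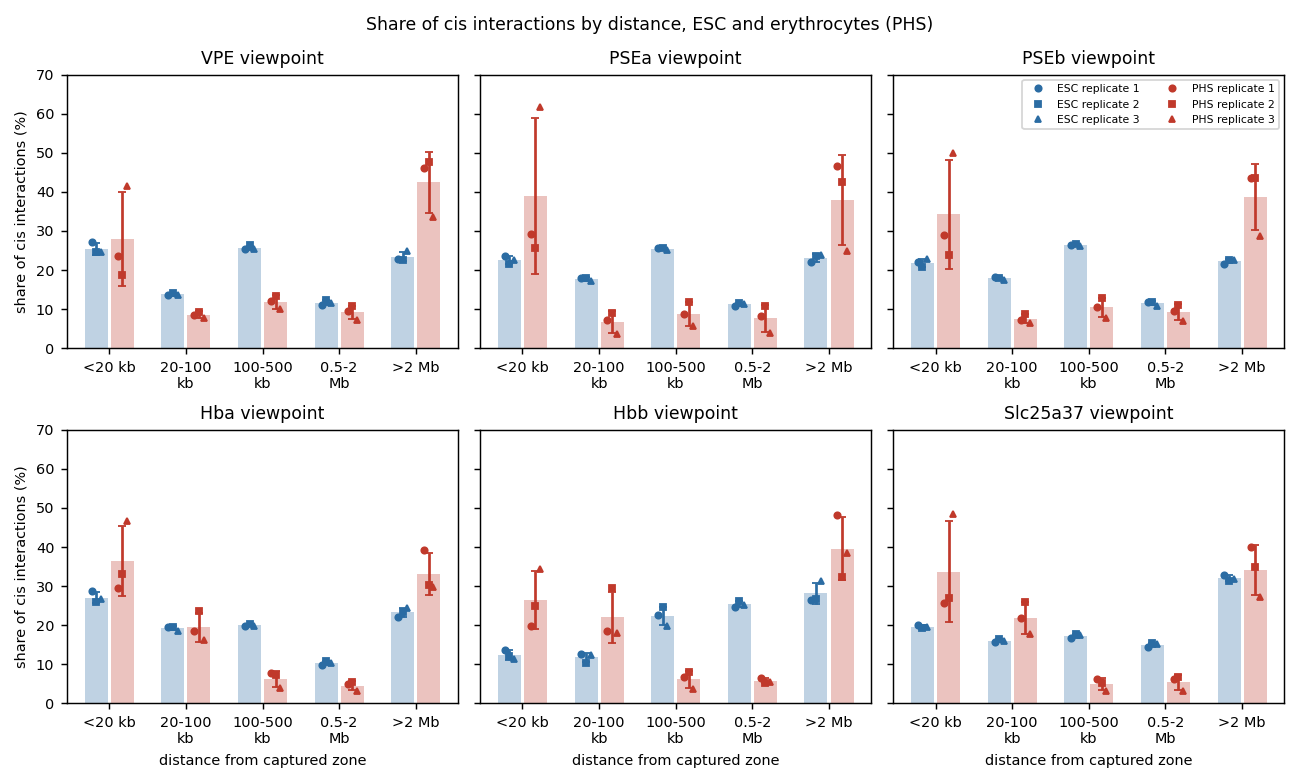
Share of cis interactions (%) in 5 classes of distance from the captured zone for each of the 6 viewpoints, in ESC (blue) and erythrocytes (PHS, red). Bars are means of 3 libraries, error bars the SD and symbols the libraries. The class of 100 to 500 kb is lower in every erythrocyte library at all 6 viewpoints, while that of 20 to 100 kb is lower for VPE, PSEa and PSEb and higher for Hbb and Slc25a37.

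The sides of a viewpoint also differed. The division of contacts between sides does not depend on how a library is scaled, and this measure was chosen after the profiles were seen. Of the contacts of VPE between 20 and 500 kb away, the side of lower coordinates, which holds the gene desert and then Cmc1 and Azi2, took 66.3, 66.4 and 68.1% in ESC and 52.4, 56.1 and 55.0% in erythrocytes. PSEa gave 74.2, 71.8 and 73.5% against 54.3, 53.8 and 60.7%, and PSEb gave 74.7, 72.1 and 71.8% against 55.4, 60.5 and 52.9%. The 3 enhancers thus contacted mostly the desert side in ESC, and in erythrocytes both sides more equally.

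The promoter viewpoints moved the other way, from even sides to uneven ones. In ESC the Hba promoters had 54.1, 54.0 and 54.5% of these contacts on the side of lower coordinates, where Nprl3 lies, and in erythrocytes 78.5, 83.2 and 84.8%. The Hbb promoters had 47.7, 50.2 and 47.0% on the side of lower coordinates in ESC and 26.7, 21.1 and 12.8% in erythrocytes, so most contacts there lay on the side of Hbb-y. The Slc25a37 promoter had 45.2% ± 1.19 on the side of the gene body in ESC and 36.6% ± 2.70 in erythrocytes (SD, n = 3). Its 2 distances differed in opposite directions. At 20 to 100 kb this side went from 48.2% ± 1.88 to 33.9% ± 3.61. At 100 to 500 kb it went from 42.4% ± 0.728 to 49.6% ± 3.87, towards even sides. No libraries overlapped at any of the 6 viewpoints (exact two-sided permutation p = 0.1 each).

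Chromosomes were then divided into 5 kb bins, and those with at least 20 reads over the 6 libraries were tested with limma at an adjusted p of 0.05. A bin could reach this minimum through the group in which it was higher. Calls of bins with few reads in the other group are therefore not support by themselves. For VPE 1 of 266 bins was higher in erythrocytes (0.376%) and 101 were lower (38.0%). For PSEa 1 of 158 was higher (0.633%) and 62 were lower (39.2%), and for PSEb 2 of 172 were higher (1.16%) and 78 lower (45.3%). For Hba 20 of 449 were higher (4.45%) and 232 lower (51.7%). For Slc25a37 10 of 118 were higher (8.47%) and 40 lower (33.9%), but without ESC replicate 1, 2 or 3 the calls in all were 6, 7 and 6. For Hbb, with few ESC reads, 37 bins could be tested, of which 5 were higher (13.5%) and 0 lower (0.0%). Calls in all also dropped from 102 to 66 and 60 for VPE without ESC replicate 1 or 2, from 63 to 41 for PSEa without ESC replicate 1 or 3, and from 80 to 39 and 50 for PSEb without ESC replicate 2 or 3, and those of Hbb became 8 without ESC replicate 3 and 3 without erythrocyte replicate 2.

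The counts of lower bins rest on the scaling. The median log2 fold change of all tested bins (erythrocytes minus ESC) was -0.94 for VPE, -1.53 for PSEa, -1.30 for PSEb, -1.25 for Hba, 0.97 for Hbb and -2.01 for Slc25a37. With trimmed-mean (TMM) factors, which assume that most bins do not change, the medians were -0.14, -0.43, -0.29, -0.52, 0.69 and -1.77. The medians of Hbb and Slc25a37 thus stayed away from no change. A higher call kept with TMM at Hbb, or a lower one at Slc25a37, therefore does not by itself set a bin apart from the typical bin. The Hbb median covers only the bins that met the minimum of 20 reads. Between 100 and 500 kb the 5 tested Hbb bins had a median of 1.13 under the cis scaling. The share of that whole class was lower in erythrocytes, at a ratio of 0.275. With TMM the calls were 4 higher and 2 lower for VPE, 2 and 3 for PSEa and 3 and 4 for PSEb. For Hba they were then 42 and 69, for Hbb 4 and 1 and for Slc25a37 12 and 29. Where a named bin or gene lost its call with TMM, this is said beside it.

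**Figure D2:**
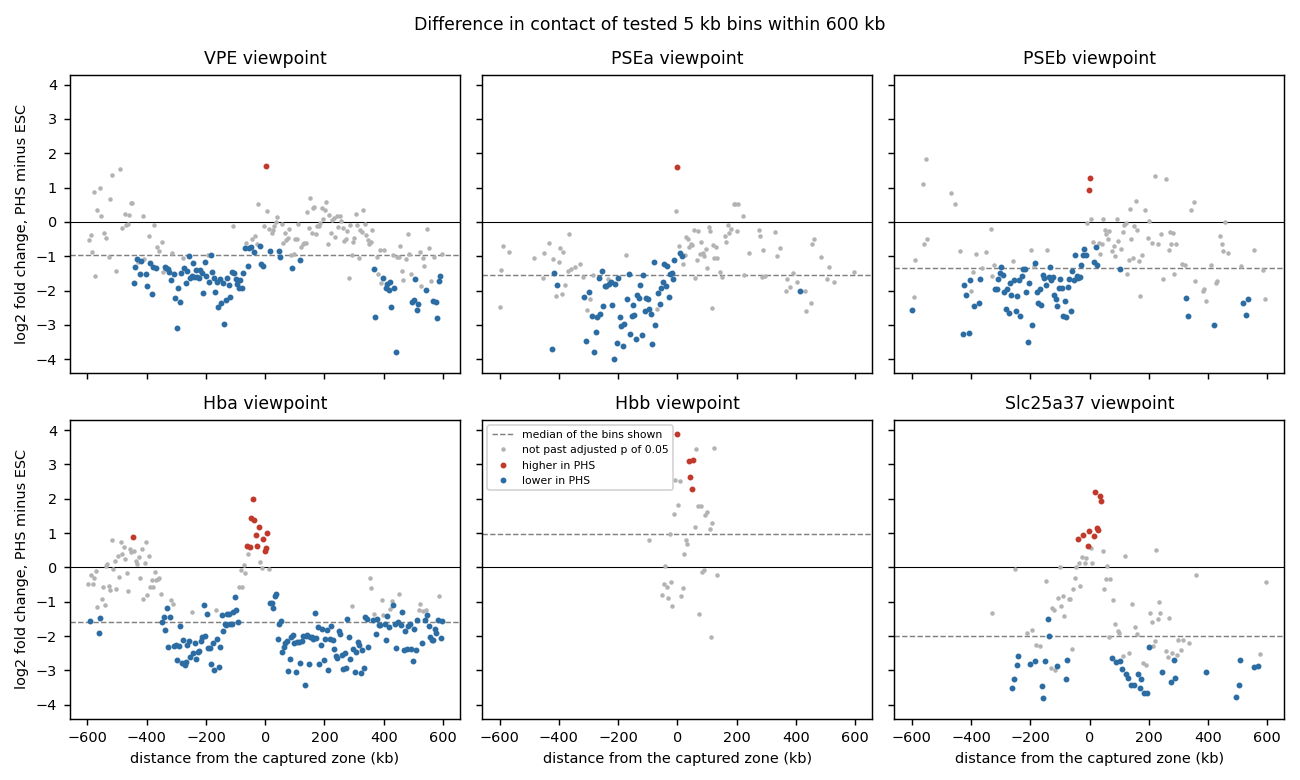
Log2 fold change (erythrocytes minus ESC, per 100000 cis interactions plus 10) of each tested 5 kb bin within 600 kb of the captured zone, against its distance in kb. Red and blue points pass an adjusted p of 0.05 in limma and the dashed line is the median of the bins shown. Lower bins fill the negative side of VPE, PSEa and PSEb, while Hba has higher bins on its negative side and Hbb and Slc25a37 on their positive side.

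The lower contacts of the Eomes enhancers were concentrated in the desert of 328.1 kb between Cmc1 and Eomes. Of its 67 tested bins, 58 were lower in erythrocytes from VPE, 57 from PSEa and 58 from PSEb, against 38.0, 39.2 and 45.3% of all tested bins. The desert took 26.2, 26.3 and 26.7% of the cis contacts of VPE in ESC and 10.5, 11.8 and 9.69% in erythrocytes, a ratio of 0.404 with no overlap between libraries. The segment over Azi2, an adaptor of innate immune signalling, and Cmc1, a mitochondrial protein, also took a lower share. There VPE went from 3.82% ± 0.115 to 1.65% ± 0.139, PSEa from 2.78% ± 0.197 to 1.17% ± 0.271 and PSEb from 2.88% ± 0.334 to 0.960% ± 0.446 (SD, n = 3, exact permutation p = 0.1 each). For PSEa and PSEb, whose own zones lie in the desert, its whole share went from 48.6% ± 1.52 to 44.5% ± 18.0 and from 47.2% ± 1.22 to 40.5% ± 11.9, with overlapping libraries. These segments, like those of the other loci, were laid between annotated genes after the profiles were seen.

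On the other side of Eomes the enhancers differed. Between Eomes and Golga4, next to its own zone, VPE went from 8.23, 7.88 and 6.92% to 11.2, 9.10 and 21.8%, with 1 of 5 bins higher and 1 lower, while PSEb went from 2.96% ± 0.635 to 1.61% ± 0.276, with 3 of 5 bins lower, and PSEa from 2.21% ± 0.055 to 1.43% ± 0.770, with 0 of 5 bins passing (SD, n = 3, no overlap). Over Golga4, a golgin of the trans-Golgi network, VPE had 5.17% ± 0.225 of its contacts in ESC and 4.04% ± 0.261 in erythrocytes, and 3 of 16 bins were lower. Over Itga9, an integrin subunit, it had 5.29% ± 0.173 and 3.98% ± 0.735, and 6 of 60 bins were lower. From PSEa, 0 of 16 bins over Golga4 passed the limma test, and from PSEb 1 of 15. Of all tested bins, 0.376% were higher and 38.0% lower from VPE, while 39.2% were lower from PSEa and 45.3% from PSEb.

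The largest losses that the naming rule gave lay in the desert, over Azi2, or beyond Itga9. From VPE, the bin at chr9:118835001-118840000 over Ctdspl had 253, 164 and 127 contacts per 100000 in ESC and 13.0, 0.0 and 0.0 in erythrocytes. It was lower by a log2 fold change of -3.80 (SE 0.66, limma adjusted p = 0.000376) on 66 and 2 reads, a ratio of 25.2 with a counting interval of 6.71 to 213. The bin reached 20 reads only through ESC, the group in which it was higher, so this p-value is not support by itself. The desert bin at chr9:118095001-118100000 had 498, 578 and 366 contacts from VPE in ESC and 52.1, 85.5 and 20.4 in erythrocytes, and 530, 518 and 648 against 104, 51.8 and 0.0 from PSEa. These 2 viewpoints gave it log2 fold changes of -3.09 (adjusted p = 7.98e-05) and -3.79 (adjusted p = 0.00586), and the second missed the threshold with TMM (adjusted p = 0.0958). Both groups of libraries were separated at this bin from either viewpoint. It too reached 20 reads only through ESC, on 173 and 14 reads from VPE and 103 and 9 from PSEa.

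The other bins named by size were 1 over Azi2 and 2 more in the desert. The Azi2 bin at chr9:117950001-117955000 fell from a mean of 238 to 14.9 contacts from PSEa and from 328 to 34.0 from PSEb. The 2 desert bins fell from 298 to 19.9 from PSEa (chr9:118160001-118165000) and from 384 to 39.0 from PSEb (chr9:118170001-118175000). The Azi2 bin and these 2 desert bins had 3 to 7 erythrocyte reads from the viewpoints named. They reached 20 reads only through ESC, so their calls are not support by themselves. The Azi2 bin from PSEa also missed the threshold without ESC replicate 1 or 3 (adjusted p up to 0.121). All of these except the bin over Ctdspl and the desert bin seen from VPE missed the threshold with TMM.

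**Figure D3:**
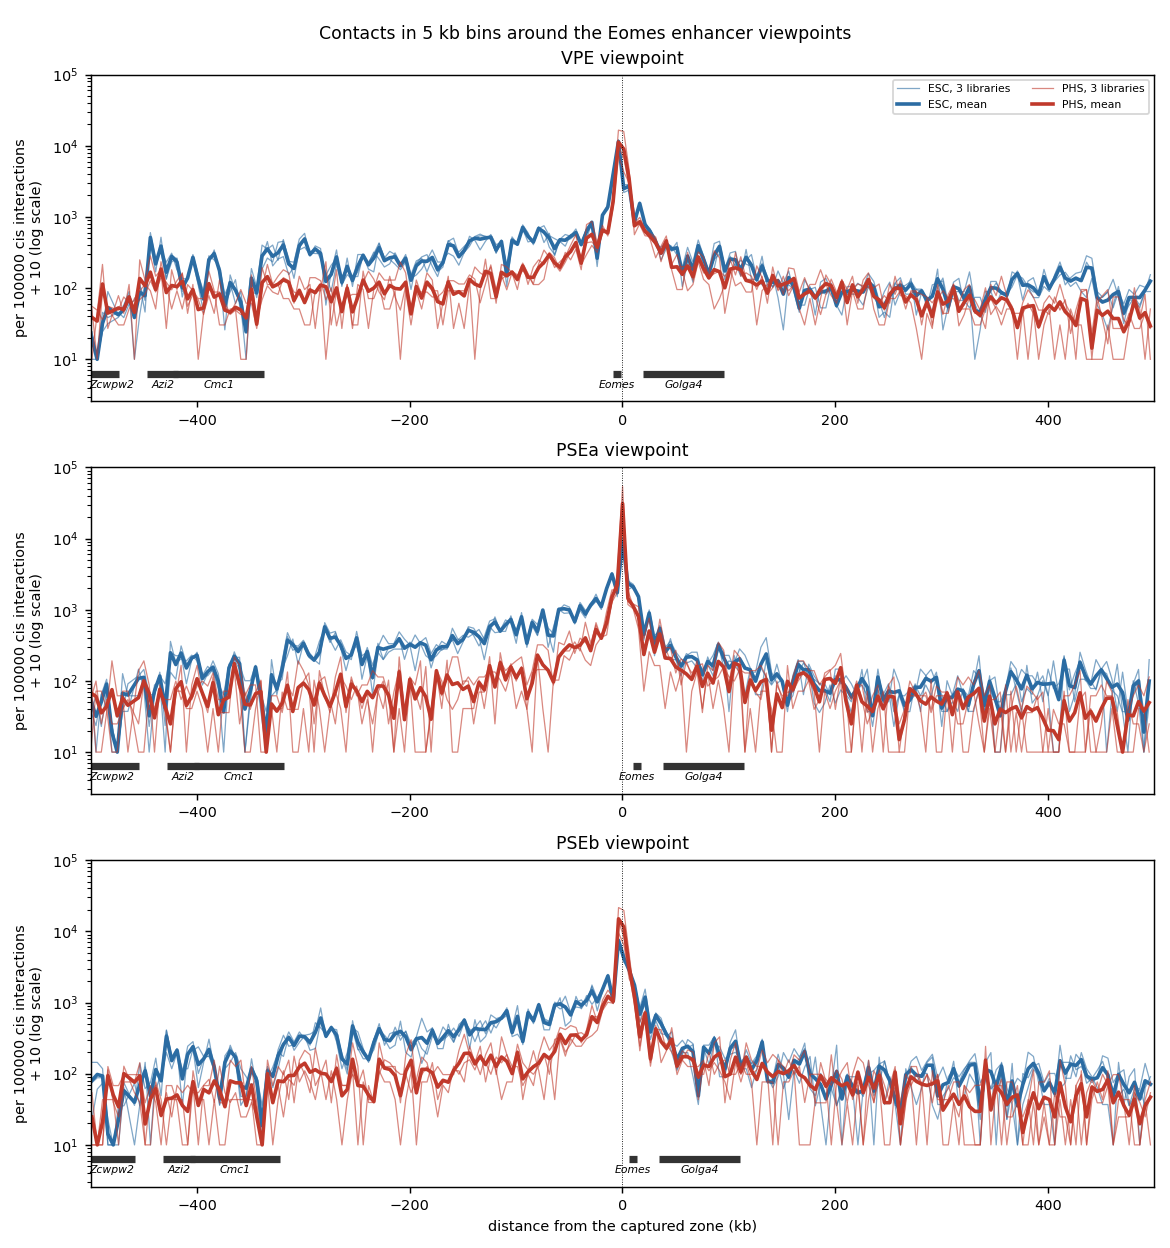
Contacts per 100000 cis interactions plus 10 (log scale) in 5 kb bins up to 500 kb from VPE, PSEa and PSEb, against distance from the captured zone in kb. Thin lines are libraries and thick lines the means of 3 ESC (blue) and 3 erythrocyte (PHS, red) libraries, and black bars are genes. ESC lies above erythrocytes over most of the desert between Cmc1 and Eomes, and the lines lie closer together over Golga4.

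Contact with the Eomes start itself, counted within 2.5 kb of it, differed between the enhancers. From VPE it was 4485, 3659 and 3864 per 100000 in ESC and 1575, 1351 and 1984 in erythrocytes, with no overlap. The log2 fold change was -1.30 (SE 0.23, limma adjusted p = 0.000301), and -0.39 with TMM (adjusted p = 0.364), so relative to the other bins of this chromosome the start did not pass. From PSEa it was 2264, 1937 and 2078 in ESC against 1193, 1114 and 1019 (log2 fold change -0.91, SE 0.21, adjusted p = 0.00896), and this direction turned to 0.47 with TMM (adjusted p = 0.284). From PSEb it was 2726, 3134 and 2605 against 2555, 2148 and 4697, with overlapping libraries (0.07, SE 0.33, adjusted p = 0.87).

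Of the 4 neighbour genes listed for Eomes, 0 rose from any enhancer. From VPE, Cmc1 fell from 332 ± 116 to 115 ± 50.9 per 100000 (SD, n = 3, limma adjusted p = 0.00524) and Golga4 from 1421 ± 136 to 707 ± 60.9 (adjusted p = 0.00211), while Azi2 and Zcwpw2 did not pass. With TMM both calls were lost (Cmc1 -0.61, adjusted p = 0.312; Golga4 -0.09, adjusted p = 0.804). From PSEa only Cmc1 fell, of the 4 tested, and from PSEb Azi2 and Golga4 fell, of 3 tested. These calls were lost with TMM as well, for Cmc1 from PSEa (adjusted p = 0.718), Azi2 from PSEb (adjusted p = 0.219) and Golga4 from PSEb, whose log2 fold change of -1.10 was then 0.00. Without single ESC libraries Cmc1 from PSEa (replicate 1 or 2, adjusted p up to 0.0902) and Golga4 from PSEb (replicate 2 or 3, adjusted p up to 0.0743) missed the threshold. Cmc1 from PSEa had 49 ESC and 11 erythrocyte reads, and Azi2 from PSEb had 26 and 3. Both reached the minimum of reads only through ESC, the group in which they were higher, so their calls are not support by themselves. Bins and gene starts together gave a background of 0.366% higher and 38.8% lower for VPE, 0.606 and 39.4% for PSEa, and 0.562 and 44.9% for PSEb.

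The same pairs were also seen from the Eomes promoter in the promoter capture. There the VPE zone and 5 kb to each side had 7797, 8758 and 8108 contacts per 100000 in ESC and 6708, 6472 and 10437 in erythrocytes (log2 fold change -0.10, SE 0.21, limma adjusted p = 0.74). PSEa had 5696, 5245 and 5380 against 3895, 3947 and 4046 (-0.46, SE 0.16, adjusted p = 0.0543), and PSEb 11176, 9676 and 9106 against 9962, 8796 and 16383 (0.18, SE 0.24, adjusted p = 0.576). The windows of PSEa and PSEb overlapped, each holding the zone of the other, so their values are not separate. That of PSEb also ran into the captured zone of the Eomes promoter (chr9:118385066-118388645) and so took in contacts next to that viewpoint. The median of the 245 bins tested from that promoter was -0.94, below all 3 pairs. Both captures used the same 3C libraries, so they are not separate sets of cells.

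At the α-globin locus a larger part of the erythrocyte contacts of the Hba promoters at 20 to 500 kb lay on the Nprl3 side. The body of Nprl3, whose product is part of the GATOR1 complex, took 7.25, 7.08 and 6.87% of the cis contacts in ESC and 13.5, 19.4 and 14.1% in erythrocytes. Every erythrocyte library was above every ESC library, with a ratio of 2.22, and 8 of its 9 tested bins were higher, against 4.45% of all tested Hba bins. In the promoter capture the ratio was 2.18. Further towards lower coordinates, over Rhbdf1 and Snrnp25, the shares of 1.98% ± 0.136 in ESC and 1.77% ± 0.613 in erythrocytes overlapped, and 0 of 4 bins passed the test. Those starts did not pass under the cis scaling (log2 fold changes of -0.16 and -0.06) but were higher with TMM (1.02 and 1.12, adjusted p = 0.0102 and 0.00715).

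On the far side of the cluster contacts were lower. Between Hbq1a and Sh3pxd2b they went from 10.7, 10.0 and 9.76% to 4.94, 5.36 and 4.51%, and 9 of 10 bins were lower. Over Sh3pxd2b, which encodes a podosome adaptor protein, they went from 4.40, 4.79 and 4.45% to 1.16, 0.987 and 0.455%, a ratio of 0.191, and all 17 tested bins were lower, against 51.7% of all tested bins. The gain on the Nprl3 side held near the promoters. Between 20 and 100 kb the Nprl3 side went from 11.3, 11.7 and 10.8% to 15.5, 21.0 and 14.4% and the Sh3pxd2b side from 8.18, 7.93 and 7.82% to 2.89, 2.71 and 1.90% (exact permutation p = 0.1 each). Between 100 and 500 kb both sides were lower, the Nprl3 side going from 9.99, 9.82 and 10.2% to 4.99, 4.87 and 2.81%.

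Within the globin cluster, Hba-x to Hbq1a, the share was 18.1, 15.9 and 17.3% in ESC and 20.8, 21.2 and 37.2% in erythrocytes, the last from the library with many contacts next to the viewpoint. On the total of cis and trans interactions this difference turned to -1.47 points. Windows around the starts of Hbq1a and Hbq1b, the θ-globin genes, had more contact in erythrocytes. Each window reached the end of a captured zone and so took in contacts next to the viewpoint, which cannot be told apart here. The fragments adjoining the Hba zones took 1.78 to 2.25% of cis interactions in ESC and 3.56 to 9.19% in erythrocytes. Hbq1a had 3075, 2664 and 2789 per 100000 in ESC and 4262, 4401 and 7528 in erythrocytes (log2 fold change 0.87, SE 0.24, limma adjusted p = 0.00734), and Hbq1b 5861, 5231 and 5831 against 6985, 7865 and 12303 (0.64, SE 0.23, adjusted p = 0.0278). Both lost the call when a single ESC library was left out (Hbq1a replicate 2 or 3, Hbq1b any), and on the total of cis and trans Hbq1b turned to -0.23 and Hbq1a was at 0.005. Hba-x, the embryonic ζ-like globin gene, had 4274, 3688 and 3842 against 2868, 4330 and 4186 (-0.07, adjusted p = 0.785), and 1.13 with TMM (adjusted p = 0.0102).

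Of the 10 neighbours of the α-globin genes that were tested, 1 was higher and 5 were lower, where bins and gene starts together gave 4.72% higher and 51.1% lower. Nprl3 was the 1 that rose, with 1377, 1450 and 1399 contacts at its start in ESC and 2608, 4461 and 2887 in erythrocytes (log2 fold change 1.19, SE 0.24, adjusted p = 0.00126). Mpg, a DNA glycosylase gene whose start lies within the body of Nprl3, had 320 ± 18.0 and 466 ± 48.0 (SD, n = 3) and did not pass (adjusted p = 0.0988, with TMM 4.1e-05). Il9r, an interleukin receptor gene, fell from 756 ± 77.5 to 245 ± 107 on the Nprl3 side, a call lost with TMM (adjusted p = 0.159). On the other side Sh3pxd2b (-2.48), Efcab9 (-2.90), Stk10 (-2.5, adjusted p = 0.0546 with TMM) and Ubtd2 (-1.0, turning to 0.09 with TMM) fell, and Fbxw11 did not pass. Ubtd2 missed the threshold without any 1 library other than erythrocyte replicate 3 (adjusted p up to 0.128). Efcab9 and Stk10 had 194 and 153 ESC reads and 13 and 15 erythrocyte reads. Both reached the minimum of reads only through ESC, the group in which they were higher, so their calls are not support by themselves. Polr3k, also listed as a neighbour, has no start within 500 kb of the viewpoint.

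The bin of largest gain near the Hba promoters lay over Nprl3 at chr11:32145001-32150000, with 666, 721 and 600 contacts in ESC and 2332, 3263 and 2443 in erythrocytes (log2 fold change 1.99, SE 0.23, adjusted p = 4.27e-05). No libraries overlapped, and the promoter capture gave 1.77. On the total of cis and trans the difference was 1.12 and missed the threshold (adjusted p = 0.114). Within it, the fragment of at most 300 bases with the largest gain, chr11:32149641-32149927, had 68.3, 141 and 112 contacts in ESC and 214, 524 and 289 in erythrocytes. It is printed with its locus peers below because such fragments are the pieces of DNA that met the promoters more often. The other 2 named gains lay megabases away, at chr11:20530001-20535000 over Sertad2 (4.7, 4.6 and 0.0 against 57.4, 30.2 and 44.4) and at chr11:58770001-58775000 over Trim17 and Hist3h2a (0.0 in all ESC libraries against 49.8, 70.5 and 11.1, at least 15.5-fold on a floor of 3 reads over the ESC group). Both of these reached 20 reads only through the erythrocyte libraries. As an Hba interaction may be counted at both α-globin promoters, their 25 and 28 erythrocyte reads and the 15.5-fold bound may be overstated.

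The largest named losses of the Hba promoters lay on the opposite side. They were 2 bins over Sh3pxd2b, at chr11:32320001-32325000 (139 ± 18.8 to 4.2 ± 3.9) and chr11:32290001-32295000 (335 ± 53.4 to 34.5 ± 23.2), and 1 over Stk10 at chr11:32510001-32515000 (221 ± 21.3 to 25.0 ± 24.9; SD, n = 3). Each of the 3 also passed with TMM. The bin at chr11:32320001-32325000 had 152 ESC and 3 erythrocyte reads, a ratio of 26.2 with a counting interval of 8.81 to 129. That over Stk10 had 236 and 18. Both reached the minimum of reads only through ESC, the group in which they were higher, so their calls are not support by themselves. The bin at chr11:32290001-32295000 had 368 and 22 reads, and Hba reads may be overstated.

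**Figure D4:**
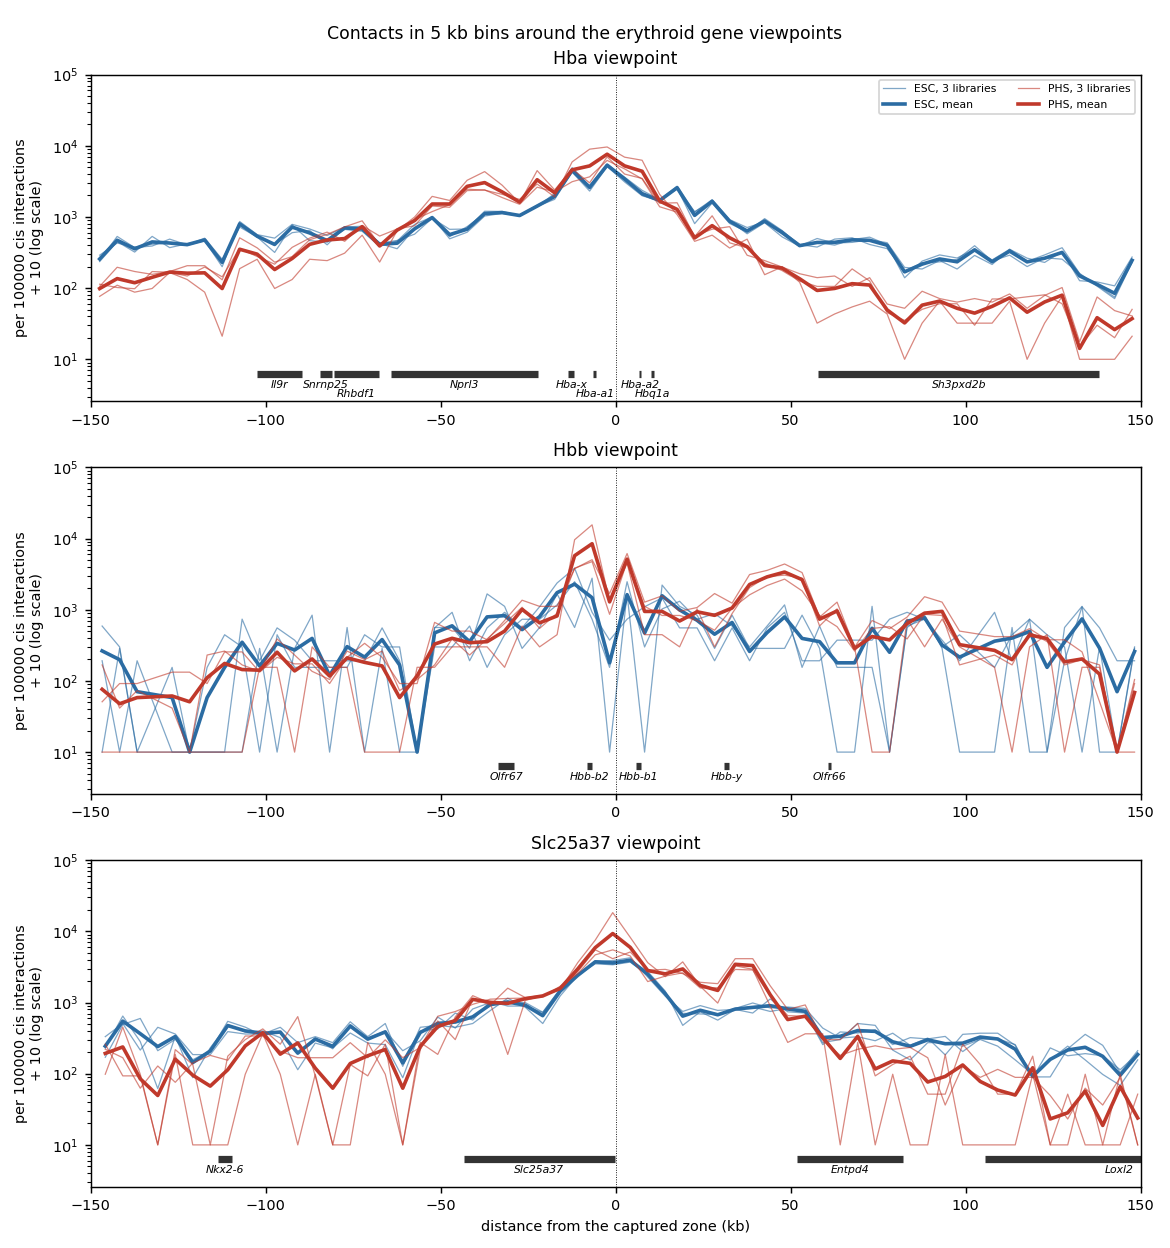
Contacts per 100000 cis interactions plus 10 (log scale) in 5 kb bins within 150 kb of the Hba, Hbb and Slc25a37 viewpoints, against distance in kb from the captured zone or from the midpoint of both zones. Thin lines are libraries and thick lines the means of 3 ESC (blue) and 3 erythrocyte (PHS, red) libraries, and black bars are genes. Erythrocytes rise above ESC over Nprl3, between Hbb-y and Olfr66, and between Slc25a37 and Entpd4, and fall below it over Sh3pxd2b and Loxl2.

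At the β-globin locus the gain lay between Hbb-y and Olfr66, the interval of the locus control region. It took 2.18, 3.04 and 2.21% of the cis contacts of the Hbb promoters in ESC and 9.78, 15.9 and 11.8% in erythrocytes, a ratio of 5.04 on 41 and 780 reads. The promoter capture, in which ESC libraries held 5349 to 8005 reads, gave 2.80, 2.34 and 1.49% against 10.8, 19.2 and 11.6%, a ratio of 6.27. Between the viewpoint and this interval, from Hbb-b1 to Hbb-y, the shares of 4.49% ± 0.486 and 4.28% ± 1.98 overlapped and 0 of 6 bins passed, although the embryonic genes there lie nearer. Between Hbb-b2 and Hbb-b1 contacts went from 3.31% ± 1.12 to 11.1% ± 1.81, and from Olfr67 to Hbb-b2 from 5.31% ± 2.40 to 12.3% ± 7.21 (SD, n = 3, exact permutation p = 0.1 each).

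The 3 named bins of the Hbb promoters all lay in that interval. The bin at chr7:111005001-111010000 had 182, 290 and 276 contacts in ESC and 1609, 3108 and 2035 in erythrocytes, that at chr7:111010001-111015000 had 545, 580 and 276 against 2177, 3558 and 2907, and that at chr7:111020001-111025000 had 182, 145 and 829 against 1830, 3313 and 2762. Their log2 fold changes were 3.10, 2.64 and 3.14, with limma adjusted p of 7.69e-07, 3.36e-06 and 1.21e-07, on 4, 8 and 5 ESC reads. No libraries overlapped. The bins reached the minimum of 20 reads through their 141, 176 and 158 erythrocyte reads, the group in which they were higher, so these p-values are not support by themselves. Without ESC replicate 2 the bin at chr7:111020001-111025000 missed the threshold (adjusted p = 0.0626). In the deeper promoter capture the same bins gave 2.79, 2.79 and 3.14, and there 101 bins passed as lower beside 11 higher, so the 0 lower bins of the enhancer capture stand beside its 185 ESC reads between 20 and 100 kb. On the total of cis and trans 0 Hbb bins passed.

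The starts of the embryonic and minor β-like genes did not pass the test, which had a background of 7.84% higher and 0.0% lower. Hbb-y had 545, 580 and 829 contacts in ESC and 1073, 1145 and 872 in erythrocytes (log2 fold change 0.67, SE 0.48, limma adjusted p = 0.419). Hbb-bh1 had 545, 725 and 1105 against 757, 777 and 1017 (0.15, adjusted p = 0.84), Hbb-bh2 182, 1304 and 829 against 883, 818 and 581 (0.35, adjusted p = 0.722), and Hbb-bh0 182, 435 and 553 against 757, 1759 and 436 (1.22, adjusted p = 0.258). These 4 genes rested on 6 to 13 ESC reads each. Of 56 olfactory receptor and other listed neighbours 10 could be tested and 0 passed. The nearest to the gained interval, Olfr66, had 364, 145 and 0.0 against 663, 1309 and 1017 with no overlap (3.54, SE 1.62, adjusted p = 0.18).

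At Slc25a37 the gain lay upstream of the promoter. The interval to Entpd4, a nucleoside diphosphatase gene, took 13.3, 13.0 and 13.1% of cis contacts in ESC and 22.2, 27.9 and 27.8% in erythrocytes, a ratio of 1.98, and 7 of 12 bins were higher against 8.47% of all tested bins. The gene body itself went from 15.7, 15.3 and 14.7% to 19.9, 19.9 and 35.6%. The body of Entpd4 went from 2.45% ± 0.073 to 1.71% ± 0.616, and beyond it Loxl2, a lysyl oxidase gene, went from 3.15, 3.59 and 2.54% to 0.920, 0.416 and 0.442%, with 11 of 19 bins lower against 33.9% of all tested bins. The promoter capture gave ratios of 2.00 for the gained interval and 0.217 for Loxl2.

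The largest gains were 2 adjoining bins, at chr14:69935001-69940000 (791, 814 and 789 contacts in ESC, 2904, 4116 and 3269 in erythrocytes) and chr14:69940001-69945000 (856, 975 and 702 against 2852, 4116 and 2915). Their log2 fold changes were 2.07 and 1.94 (SE 0.23 and 0.25, limma adjusted p = 6.40e-06 and 8.56e-06), and no libraries overlapped. A further bin, at chr14:69925001-69930000, went from 769 ± 112 to 1727 ± 167 (SD, n = 3). The largest losses were bins near Rps2-ps5 (228 ± 34.3 to 13.1 ± 22.8), over Pebp4 (132 ± 46.0 to 0.0, at least 4.89-fold on a floor of 3 reads over the erythrocyte group) and over Loxl2 and R3hcc1 (269 ± 54.0 to 30.7 ± 53.1). These loss bins had, in turn, 41, 24 and 48 ESC reads and 3, 0 and 7 erythrocyte reads. They reached the minimum of reads only through ESC, the group in which they were higher, so their calls are not support by themselves. In the promoter capture the first 2 of these losses missed the threshold. Without ESC replicate 1, 2 or 3 the first and the last missed it too (adjusted p up to 0.0956 and 0.143), and the last also without erythrocyte replicate 2.

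Of the 8 neighbours of Slc25a37, 0 rose, 3 fell and 5 did not pass, where bins and gene starts together gave 7.75% higher and 34.1% lower. Loxl2 had 324, 347 and 292 contacts at its start in ESC and 65.7, 0.0 and 0.0 in erythrocytes (log2 fold change -4.07, SE 1.21, limma adjusted p = 0.0129). Stc1, a secreted glycoprotein hormone gene, had 182, 174 and 205 against 39.4, 0.0 and 0.0 (adjusted p = 0.0108), and Tnfrsf10b, a death receptor gene, 246, 280 and 263 against 65.7, 41.6 and 0.0 (adjusted p = 0.0423, with TMM 0.0862). All 3 calls ended when single libraries were left out, Loxl2 and Tnfrsf10b without any ESC library (adjusted p up to 0.104 and 0.228) and Stc1 without ESC replicate 2 or 3 or erythrocyte replicate 2 (adjusted p up to 0.0845). Loxl2, Stc1 and Tnfrsf10b had 61, 34 and 49 ESC reads and 5, 3 and 6 erythrocyte reads. They reached the minimum of reads only through ESC, the group in which they were higher, so their p-values are not support by themselves. Entpd4 had 739, 841 and 643 against 749, 748 and 353, with overlapping libraries. The homeobox gene Nkx2-6, R3hcc1 and Chmp7 did not pass.

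**Figure D5:**
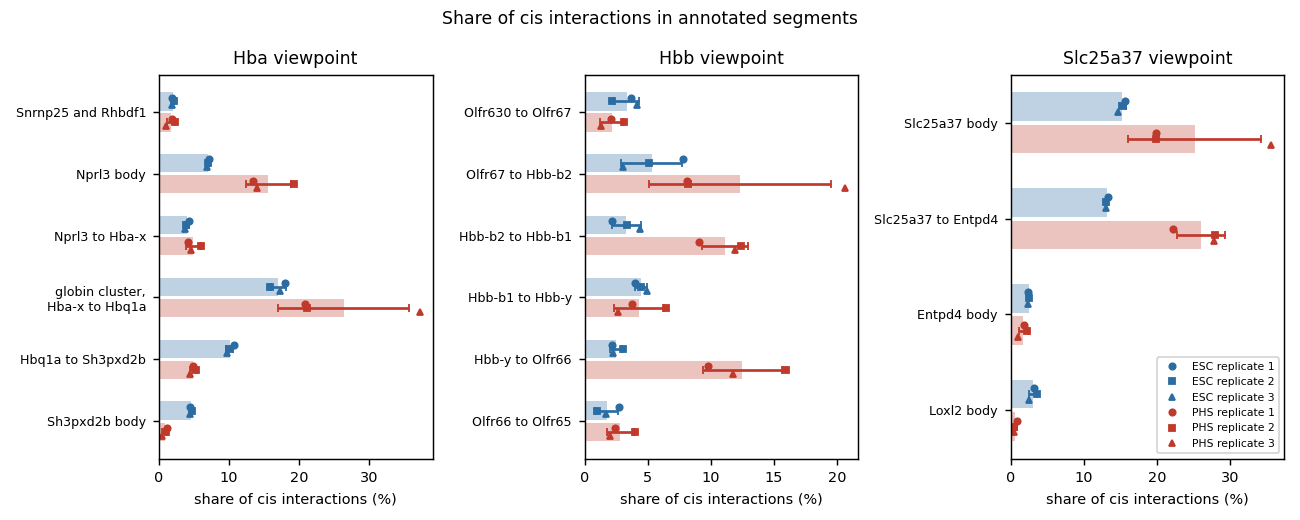
Share of cis interactions (%) of the Hba, Hbb and Slc25a37 viewpoints in segments between annotated genes, in ESC (blue) and erythrocytes (PHS, red). Bars are means of 3 libraries, error bars the SD and symbols the libraries. The segments over Nprl3, between Hbb-y and Olfr66 and between Slc25a37 and Entpd4 are higher in every erythrocyte library, and those over Sh3pxd2b and Loxl2 lower in every one.

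The short fragments of largest gain are given for the 3 promoter viewpoints (NCBIM37, + strand, capitals as above). The Hbb fragment, chr7:111009552-111009747, had 0.0 contacts in all 3 ESC libraries and 94.6, 654 and 291 in erythrocytes. It held 2 matches to TGAGTCA on the opposite strand, while 3.1% of the windows of that length on chromosome 7 held any. The Slc25a37 fragment, chr14:69941833-69942029, had 38.9, 40.1 and 0.0 contacts in ESC and 236, 541 and 88.3 in erythrocytes, and like the Hba fragment it held none of the 6 motifs. The fragments were picked for their gain, so their values are a description.
Hba, Nprl3: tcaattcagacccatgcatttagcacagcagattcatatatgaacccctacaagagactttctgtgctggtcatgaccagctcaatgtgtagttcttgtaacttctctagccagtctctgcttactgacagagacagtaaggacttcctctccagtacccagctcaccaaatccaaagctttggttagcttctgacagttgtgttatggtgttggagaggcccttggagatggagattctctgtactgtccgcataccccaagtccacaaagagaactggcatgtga
Hbb, Hbb-y to Olfr66: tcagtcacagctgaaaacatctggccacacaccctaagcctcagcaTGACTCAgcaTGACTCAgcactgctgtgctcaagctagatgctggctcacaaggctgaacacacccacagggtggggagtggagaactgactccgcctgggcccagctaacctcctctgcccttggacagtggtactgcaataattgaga
Slc25a37 to Entpd4: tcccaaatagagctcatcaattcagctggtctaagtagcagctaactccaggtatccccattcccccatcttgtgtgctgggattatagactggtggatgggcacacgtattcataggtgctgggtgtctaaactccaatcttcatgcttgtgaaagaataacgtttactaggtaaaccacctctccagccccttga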

How the data were processed

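Next Generation Capture-C signal was measured in 3 ESC and 3 erythrocyte (PHS) libraries at 6 viewpoints. The deposited signal is the number of interactions per DpnII fragment, scaled by the authors to 100000 per library and viewpoint. Per the labels and methods, reads were trimmed (Trim Galore), mapped (Bowtie, mm9) and processed with Capture-C scripts, with versions not given in the sources used here. Of 108 columns 90 were used, and 18 of other viewpoints were not. All fragment values (100%) came out as whole reads within 0.05 reads. In the Hba columns 50.9 to 55.9% of fragments held 2 steps of the smallest value, against 4.84 to 12.5% elsewhere, so an interaction may be counted at both α-globin promoters and Hba reads may be overstated.

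Signal was rescaled to 100000 cis interactions, summed in 5 kb bins and within 2.5 kb of gene starts (within 500 kb), and log2(value + 10) was tested with limma 3.58.1 (lmFit, eBayes with trend; R 4.3.3) for features with at least 20 reads, with Benjamini-Hochberg adjustment within a viewpoint. This log2 scale understates changes of low bins. Shares were compared by exact permutation tests. Alternatives used edgeR 4.0.16 and DESeq2 1.42.0 on recovered reads, other scalings, filters, pseudocounts, bin sizes and left-out libraries. Of 266 simulated VPE bins, 86% of 200 with a 4-fold change were recovered. No libraries were duplicates (lowest chi-square over degrees of freedom between replicates 1.189). Counting intervals and floors cover counting error only.

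Named features were listed target and neighbour genes, and per viewpoint up to 3 bins higher and 3 lower with the largest called fold change, no overlap between libraries, and over 20 kb from the viewpoint and outside target genes. For VPE, PSEa and PSEb no higher bin met this. Some named features are not reported here. The members and lists were chosen with earlier results of these data known. Sequences came from the NCBIM37 genome and RefSeq.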

Additional observations from a re-analysis of the deposited data

How the results depend on the processing

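Of 2331 values recomputed under alternatives for 151 results, 2037 kept their direction and their side of the threshold or stayed within the limits for counts and shares, and 65 results did so under every alternative run. The cause of each change below was not tested. On the total of cis and trans interactions, differences in share turned to -3.62 (under 20 kb, VPE), -3.85 (under 20 kb, Hba), -4.44 (20 to 100 kb, Hba), -2.56, -5.35 and -3.63 points (over 2 Mb for Hba, Hbb and Slc25a37), and -1.47 points (globin cluster). Over 2 Mb, Slc25a37 also turned to -1.72 with the trans level subtracted and -2.36 with other class ends.

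Bins called in all numbered 102, 63, 80, 252, 5 and 50 for VPE, PSEa, PSEb, Hba, Hbb and Slc25a37. With no minimum of reads they were 27, 32, 19 and 76 for the first 4 and 6 for Slc25a37, which had 102 at a minimum of 10 and 9 at 50. TMM gave 6, 5, 7 and 111 for the first 4, edgeR 35, 18, 21 and 138, and DESeq2 6, 11, 8 and 104, and 33 for Slc25a37. Bins of 10 kb gave 64 for VPE and 49 for PSEb, and single fragments 53, 34 and 7 for VPE, PSEa and PSEb, 20 for Hbb and 22 for Slc25a37. Hbb had 0 per cis and trans, 1 without the trend and 112 in the promoter capture.

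For contact with Eomes, VPE gave -0.39 (TMM), -0.37 (edgeR) and -0.41 (DESeq2). PSEa gave -1.34 per cis and trans, -0.51 per cis beyond 20 kb, -0.58 within 1 kb and -0.91 without the trend, all past no threshold, and 0.47, 0.47 and 0.35 with TMM, edgeR and DESeq2. PSEb gave -0.30 per cis and trans, and 1.31 and 1.37 with edgeR and DESeq2 (adjusted p = 0.0143 and 0.034). Zcwpw2 turned to -0.018 from VPE per cis and trans and to 0.33 and 0.20 from PSEa (edgeR, DESeq2), Azi2 from VPE to 0.27 within 1 kb, and Golga4 to 0.29, 0.60 and 0.44 from PSEa and 0.002, 0.031 and 0.022 from PSEb (TMM, edgeR, DESeq2). The PSEb zone from the Eomes promoter turned to -0.16 per cis and trans.

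From Hba, TMM, edgeR and DESeq2 gave 1.12, 1.22 and 1.10 for Snrnp25, 1.02, 1.16 and 1.02 for Rhbdf1, 1.13, 1.17 and 1.04 for Hba-x and 0.77, 1.21 and 1.06 for Fbxw11, and TMM 0.093 for Ubtd2. Per cis beyond 20 kb Snrnp25, Rhbdf1 and Hba-x were at 0.14, 0.045 and 0.14, with trans subtracted Snrnp25 and Hba-x at 0.043 and 0.036, within 1 kb Snrnp25 and Fbxw11 at 0.31 and 0.091, and within 5 kb Rhbdf1 and Hba-x at 0.16 and 0.081. Per cis and trans Mpg was at -0.31, Hbq1b at -0.23 and Hbq1a at 0.005. Hbq1b (0.64) missed the threshold with a pseudocount of 2 and, like Hbq1a (0.87), without the trend. From Hbb, Hbb-bh2, Hbb-bh1 and Hbb-y turned to -0.66, -0.86 and -0.35 per cis and trans. Hbb-bh2 and Hbb-bh1 turned to -0.31 and -0.23 with edgeR and to -0.49 and -0.39 with DESeq2, Hbb-bh1 to -0.081 with TMM, Hbb-bh1 and Hbb-y to -0.084 and -0.45 within 1 kb, and Hbb-bh2 to -0.10 within 5 kb. Entpd4 turned to 0.036 (TMM) and 0.26 (edgeR).

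Leaving out 1 library gave 60 to 104 bins for VPE, 41 to 76 for PSEa, 39 to 86 for PSEb, 168 to 250 for Hba, 3 to 8 for Hbb and 6 to 66 for Slc25a37. The shares ranged from -4.23 to 7.12 points (under 20 kb, VPE; lowest without erythrocyte replicate 3), -1.85 to 1.81 (20 to 100 kb, Hba) and -0.96 to 5.40 (over 2 Mb, Slc25a37). Log2 differences ranged from -0.033 to 0.65 for Zcwpw2 from VPE, -0.26 to 0.30 for Eomes from PSEb, -0.27 to 0.31 for Snrnp25, -0.43 to 0.18 for Rhbdf1, -0.18 to 0.12 for Hba-x, 0.40 to 0.80 for Hbq1b, 0.61 to 1.02 for Hbq1a, -0.66 to 0.23 for Fbxw11, -0.47 to 0.92 for Hbb-bh2, -0.086 to 0.42 for Hbb-bh1 and -0.51 to 0.023 for Entpd4. From the Eomes promoter they ranged from -0.32 to 0.027 for VPE, -0.48 to -0.42 for PSEa and -0.088 to 0.36 for PSEb, and VPE and PSEa passed the threshold without erythrocyte replicate 3. Replicate numbers did not pair the libraries (correlations of deviations -0.223 to 0.219), and with the replicate block 107, 67, 86, 245, 5 and 43 bins were called and Tnfrsf10b was lost (adjusted p = 0.0972). Hbb, with 521 to 973 ESC reads, was limited most by depth. The alternatives without the adjoining fragments and with the promoter capture, and those for segments and sides, were chosen after seeing the data.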
